A study of Mus musculus with 9 samples.

Results

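Chemokines are small secreted proteins that steer moving cells, and their classes are named for the spacing of conserved cysteines near the N terminus. CXC chemokines have a single residue between the first cysteine pair, and those that carry the glutamate-leucine-arginine triplet before it mainly draw neutrophils through Cxcr2. Cxcl9, Cxcl10 and Cxcl11 draw activated T cells and NK cells through Cxcr3, Cxcl12 acts through Cxcr4 and Ackr3, and Cx3cl1 (fractalkine), the CX3C chemokine, is made as a membrane-bound protein on a stalk and is recognised by Cx3cr1. In many cell types TNF-α is known to raise several of these genes through the NF-κB transcription factors. Described here are the 9 CXC and CX3C chemokine genes Cxcl1, Cxcl2, Cxcl5, Cxcl9, Cxcl10, Cxcl12, Cxcl14, Cxcl16 and Cx3cl1, which were chosen by name from the 56289 genes of the table. Of these 9 genes, 4 (Cx3cl1, Cxcl12, Cxcl1 and Cxcl10) averaged above 1 FPKM over the libraries. The other 5 were low, with at most 13.2 estimated fragments in any library.

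Poly(A) RNA was sequenced from 9 cultures labelled as RAW264.7, a mouse macrophage-like line of BALB/c origin, in 3 groups of 3 libraries. The Con group was untreated, and the TNF-α group was stimulated with TNF-α for 24 h. The TNF-α+WBT group received TNF-α together with WBT, an extract of the herbal Wang Bi tablet, for 24 h. The labels write WBT as WBP. The TNF-α was recombinant human protein according to the methods of the study, and no group with WBT alone was analysed here. The study describes its replicates as biological, the labels do not say how they were set up, and p-values measure the spread between these libraries. The macrophage label went against the data, since 7 of 18 macrophage genes (Spi1, Ptprc, Adgre1, Itgam, Ctss, Cybb and Tyrobp) were at 0 in all 9 libraries and 1 of the 18 exceeded 1 FPKM in all of them, whereas 12 of 14 fibroblast genes and 8 of 12 Schwann cell genes did. The summed level of the macrophage list was 6.14 to 7.5 FPKM in Con, 7.14 to 8.15 in TNF-α and 7.24 to 8.81 in TNF-α+WBT. The fibroblast list summed to 4993 to 5265, 5453 to 5713 and 5354 to 5480 FPKM in the same groups, the Schwann cell list to 925 to 982, 751 to 813 and 817 to 846 FPKM, and the 6 endothelial genes to at most 0.415 FPKM. The part of such marker differences in the results was not tested, and the cells are called cultures below. The depth, estimated from the FPKM step of 1 fragment, was 20299000 to 26300000 fragments in Con, 19066000 to 22564000 in TNF-α and 16978000 to 19849000 in TNF-α+WBT, and its part in the results was not tested either.

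The defining bases are shown first, because they set the 2 classes apart. Each stretch was read from GENCODE M21 transcripts (GRCm38) on the coding strand, and capitals mark the codons of the first cysteine pair.
Cxcl1: gccaatgagctgcgcTGTcagTGCctgcag
Cxcl2: gccagtgaactgcgcTGTcaaTGCctgaag
Cxcl10: gcaaggacggtccgcTGCaacTGCatccat
Cxcl12: agcctgagctaccgaTGCcccTGCcggttc
Cx3cl1: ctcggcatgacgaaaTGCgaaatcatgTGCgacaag
In Cxcl1 (chr5:90891481-90891510) the pair stood at codons 33 and 35, and in Cx3cl1 (chr8:94778036-94778071) at codons 32 and 36. The codons for the glutamate-leucine-arginine triplet stood directly before the first cysteine in 3 of the 9 genes, which were Cxcl1, Cxcl2 and Cxcl5. Cxcl10 (chr5:92348175-92348204, minus strand) and Cxcl12 (chr6:117171493-117171522) lacked them there, as did Cxcl9, Cxcl14, Cxcl16 and Cx3cl1. Cxcl12 encodes a chemokine that retains stem cells and lymphocytes in their niches, and Cx3cl1 is the longest of the printed genes at 395 codons against 96 for Cxcl1.

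Promoters are shown for 4 genes of the chromosome 5 clusters because 2 of them, Cxcl1 and Cxcl10, were the members that differed most between groups, while the neighbours Cxcl2 and Cxcl9 stayed near the detection limit. Each is the stretch of 250 bases before the start in RefSeq (GRCm38.p6), read on the strand of the gene. Capitals mark matches to the kB consensus, bound by NF-κB, to GAAANNGAA, the core of an interferon response element, and to TGANTCA, the AP-1 site.
Cxcl1: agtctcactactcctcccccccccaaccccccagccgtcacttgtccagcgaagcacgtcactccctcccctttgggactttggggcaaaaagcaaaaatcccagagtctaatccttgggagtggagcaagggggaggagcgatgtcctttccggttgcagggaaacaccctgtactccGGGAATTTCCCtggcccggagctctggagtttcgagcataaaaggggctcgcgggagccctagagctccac
Cxcl2: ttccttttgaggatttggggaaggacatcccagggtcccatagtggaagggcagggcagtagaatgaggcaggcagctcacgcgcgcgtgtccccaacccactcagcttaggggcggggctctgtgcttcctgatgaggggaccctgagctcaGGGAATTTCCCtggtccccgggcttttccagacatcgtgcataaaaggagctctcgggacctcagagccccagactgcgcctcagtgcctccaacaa
Cxcl9: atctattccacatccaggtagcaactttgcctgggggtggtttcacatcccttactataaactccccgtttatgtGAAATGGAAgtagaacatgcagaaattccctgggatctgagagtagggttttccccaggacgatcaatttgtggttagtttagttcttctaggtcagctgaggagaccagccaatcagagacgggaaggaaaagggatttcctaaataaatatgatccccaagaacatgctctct
Cxcl10: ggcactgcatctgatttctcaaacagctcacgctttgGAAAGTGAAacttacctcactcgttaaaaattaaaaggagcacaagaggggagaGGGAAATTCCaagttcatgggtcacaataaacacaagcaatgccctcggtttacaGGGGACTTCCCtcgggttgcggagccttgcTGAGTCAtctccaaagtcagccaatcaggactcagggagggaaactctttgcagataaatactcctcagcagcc
The windows lie at chr5:90890995-90891244 for Cxcl1, chr5:90903649-90903898 for Cxcl2, chr5:92328080-92328329 (minus strand) for Cxcl9 and chr5:92348890-92349139 (minus strand) for Cxcl10. The search covered both strands, and RefSeq entries were found for 7 of the 9 genes, all but Cxcl5 and Cxcl16. The kB consensus was present in 3 of the 7 promoters (Cxcl1, Cxcl2 and Cxcl10) and in 7.25% of all 32851 promoters. GAAANNGAA occurred in Cxcl9, Cxcl10 and Cxcl14 and in 7.13% of all promoters, and TGANTCA in Cxcl10 and in 6.75%. These matches overlap each other on opposite strands where the letters are palindromic, and they are a description of the letters in the window and not evidence of binding. The kB consensus match of Cxcl1 began 71 bases before the start and that of Cxcl2 began 97 bases before it.

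In the untreated cultures Cx3cl1 was the most abundant of the 9 transcripts and Cxcl12 the second. Cx3cl1 stood at 16.0 ± 0.65 FPKM (SD, n = 3), Cxcl12 at 8.17 ± 0.842 FPKM and Cxcl1, which draws neutrophils, at 1.37 ± 0.148 FPKM. Cxcl10 followed at 0.335 ± 0.189 FPKM. Each of these 3 steps in the order was larger than the spread, since the library ranges of neighbours did not overlap, whereas Cxcl10 and the next gene, Cxcl16, overlapped. The 9 genes together summed to 26.1 ± 0.751 FPKM in Con, 48.8 ± 3.36 FPKM in TNF-α and 44.0 ± 1.72 FPKM in TNF-α+WBT. In every library of all 3 groups at least 98.5% of that sum came from the 4 genes Cx3cl1, Cxcl12, Cxcl1 and Cxcl10. Cx3cl1 made up 61.2% of the sum in Con and 44.1% in TNF-α, Cxcl1 rose from 5.24% to 21.3% of it and Cxcl10 from 1.28% to 13.7%, and these shares are given without a test. With TNF-α the order became Cx3cl1, Cxcl1, Cxcl12 and Cxcl10, in which Cxcl1 (10.4 FPKM) and Cxcl12 (9.79 FPKM) overlapped and the other neighbours among the 4 did not.

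**Figure D1:**
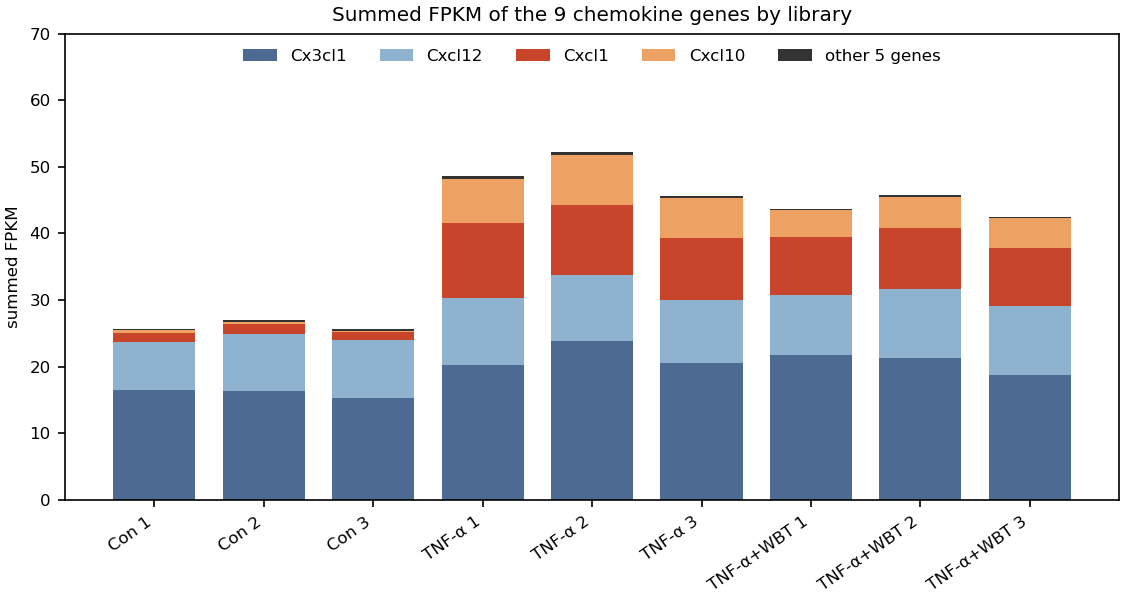
Summed FPKM (vertical axis) of the 9 chemokine genes in each of the 9 libraries, with 1 bar per library and coloured segments for the genes. The bars stand at 25.7 to 27.0 FPKM in Con, 45.6 to 52.3 in TNF-α and 42.4 to 45.8 in TNF-α+WBT, and the Cxcl1 and Cxcl10 segments account for most of the added height.

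The first comparison asked which of the genes changed with TNF-α stimulation. Of the 9 genes, 8 passed the filter of more than 0 FPKM in at least 3 libraries, and 3 rose with an adjusted p under 0.05 in the limma model (Cxcl1, Cxcl10 and Cx3cl1), while none fell. Over all 25417 genes tested, 4.86% were called in this comparison and 2.94% were called as higher. By the thresholds of the study, an unadjusted p under 0.05 with more than a 2-fold change, 2 of the 9 rose (Cxcl1 and Cxcl10), beside 1.37% of all genes tested. The median log2 difference of the 8 tested genes was 0.34, beside 0.003 for all genes tested. It takes in Cxcl2, Cxcl9, Cxcl14 and Cxcl16, which had at most 13.2 estimated fragments in any library. Cxcl1 and Cxcl10 are also among the hub genes that the study chose on these libraries, so their direction is not independent evidence. In bulk RNA, fewer cells expressing a gene and less RNA per cell cannot be told apart.

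The Con libraries held Cxcl1 at 1.37, 1.52 and 1.22 FPKM, those with TNF-α alone at 11.3, 10.5 and 9.37 FPKM, and those with WBT as well at 8.7, 9.16 and 8.82 FPKM. All stimulated libraries lay above all untreated ones, and the groups did not overlap. The mean was 7.59 times higher with TNF-α than in Con, and the difference on the log2(FPKM + 0.1) scale was 2.84 ± 0.10 (SE, adjusted p = 1.62e-06). The gene (ENSMUSG00000029380) lies at chr5:90891241-90893115 on the plus strand, and between 24.6 and 261.7 estimated fragments per library stood behind these values.

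Cxcl10, the interferon-inducible ligand of Cxcr3, was at 0.506, 0.366 and 0.133 FPKM in Con, at 6.6, 7.52 and 5.99 FPKM with TNF-α and at 4.02, 4.76 and 4.44 FPKM with TNF-α+WBT. It had the largest ratio of the 4 expressed genes, with a TNF-α mean 20.0 times that of Con, and the ranges of the 3 groups were separate from each other. The log2 difference between TNF-α and Con was 4.07 ± 0.31 (SE, adjusted p = 0.000123), and it depended on the pseudocount, at 2.53 with 1 FPKM and 4.47 with 0.01 FPKM. The Con libraries held 14.8, 8.9 and 2.9 estimated fragments of Cxcl10, so its level before stimulation is known only roughly, while the TNF-α libraries held 126.7 to 189.4. The gene (ENSMUSG00000034855, chr5:92346638-92348889, minus strand) shares exon sequence with Art3 on the opposite strand, which was at 7.74 ± 2.87 FPKM in Con and 9.09 ± 2.24 FPKM with TNF-α. The counting is not stated to use strand, so fragments in the shared exon bases cannot be assigned with certainty.

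Cx3cl1 was at 16.4, 16.3 and 15.2 FPKM in Con, at 20.2, 23.8 and 20.6 FPKM with TNF-α and at 21.7, 21.3 and 18.7 FPKM with TNF-α+WBT. All libraries with TNF-α lay above all Con libraries, by a modest margin beside Cxcl1 and Cxcl10. The ratio of means was 1.35, with a log2 difference of 0.42 ± 0.08 (SE, adjusted p = 0.0183). Its size was 0.35 to 0.47 when single libraries were left out, but its call was lost without Con replicate 1 (adjusted p of 0.05 after rounding, on the far side of the threshold), Con replicate 2 (0.0505) or Con replicate 3 (0.0739), as well as without the filter (0.074) or the intensity trend (0.0623). The gene (ENSMUSG00000031778) lies at chr8:94772009-94782427.

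Cxcl12 was at 7.2, 8.61 and 8.7 FPKM in Con, at 10.1, 9.94 and 9.38 FPKM with TNF-α and at 9.06, 10.4 and 10.3 FPKM with TNF-α+WBT. The Con libraries all lay below the others, yet the difference did not pass the test. The log2 difference between TNF-α and Con was 0.26 (95% interval 0.06 to 0.46, adjusted p = 0.169). When limma-voom was run on estimated fragments, an alternative chosen after seeing the data, the difference was 0.28 with an adjusted p of 0.0292. The gene (ENSMUSG00000061353) lies at chr6:117168535-117181367, and it was represented by 608.2 to 826.7 estimated fragments per library.

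**Figure D2:**
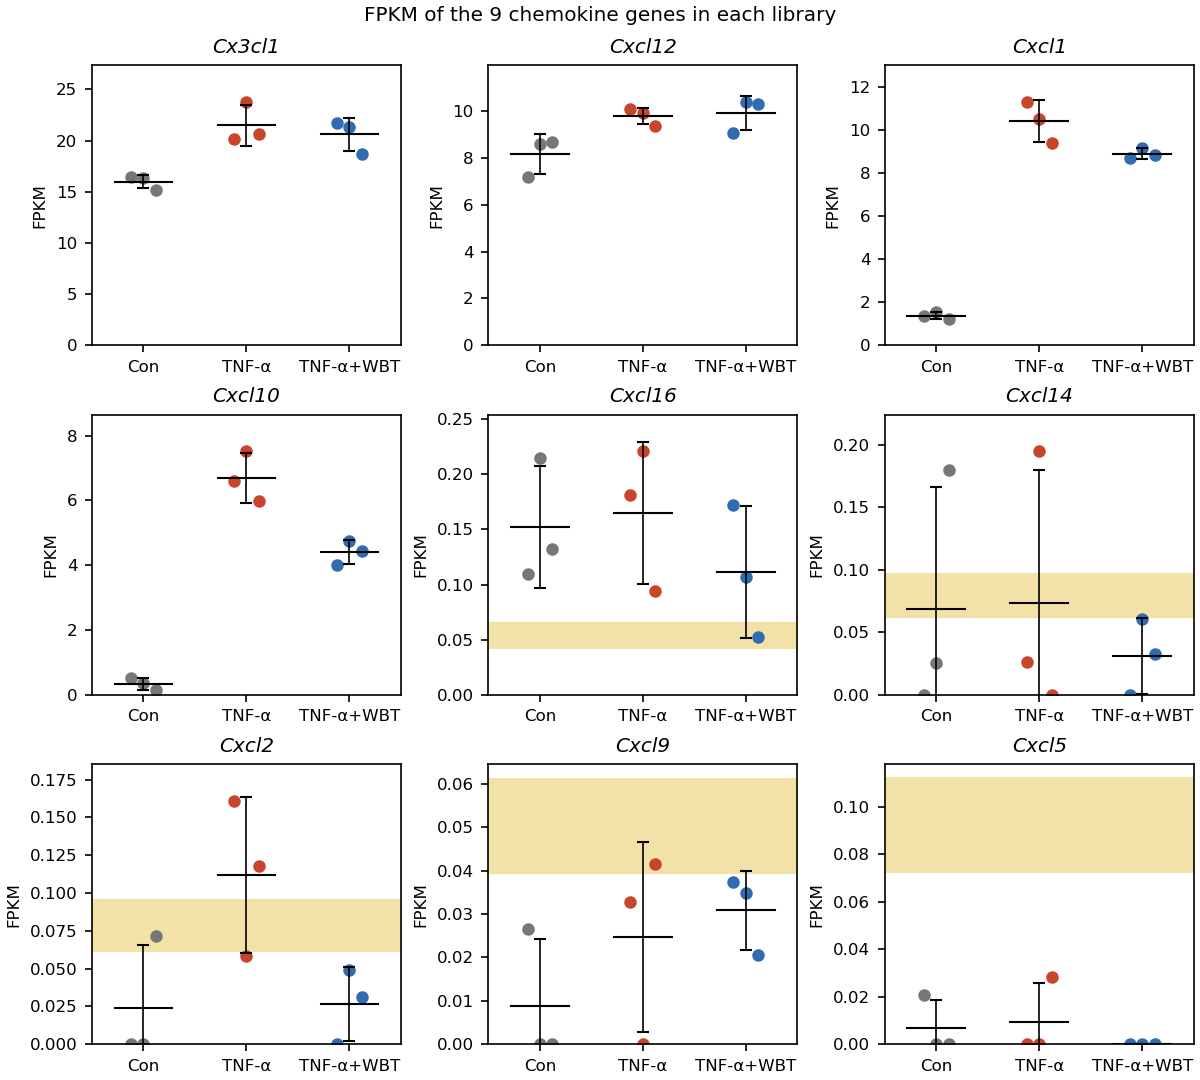
FPKM (vertical axis, a separate scale for each gene, starting at 0) of the 9 chemokine genes in the Con, TNF-α and TNF-α+WBT groups; points are libraries, horizontal lines group means and bars the SD (n = 3). The yellow band, drawn for genes with fewer than 15 estimated fragments in every library, spans the level that 3 fragments give across the libraries. Cxcl1 and Cxcl10 rise clear of Con, and Cxcl9 and Cxcl5 lie within or below the band in all 9 libraries.

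The remaining 5 genes were low. Cxcl16, a membrane-bound chemokine that also binds oxidised lipoprotein, was at 0.11, 0.215 and 0.132 FPKM in Con, at 0.181, 0.221 and 0.0941 FPKM with TNF-α and at 0.172, 0.107 and 0.0527 FPKM with TNF-α+WBT, which is 2.4 to 13.2 estimated fragments. Its groups overlapped, with a log2 difference between TNF-α and Con of 0.06 (95% interval -0.62 to 0.75). Exons of Cxcl16 overlap those of Zmynd15 on the other strand, which was at most 0.18 FPKM.

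Cxcl2, a neutrophil attractant next to Cxcl1, was at 0, 0 and 0.0718 FPKM in Con, at 0.161, 0.0583 and 0.118 FPKM with TNF-α and at 0, 0.0488 and 0.0309 FPKM with TNF-α+WBT. The most it reached was 6.0 estimated fragments, in TNF-α replicate 1, and TNF-α and Con overlapped. Its difference between these groups did not pass the test (adjusted p = 0.204). A count of 0 allows 3 fragments, which for Cxcl2 is 0.0614 to 0.0951 FPKM across the libraries. How fragments that match both Cxcl1 and Cxcl2 were divided is not stated.

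Cxcl14, which is made by many epithelia and fibroblasts, ranged over 0 to 0.18 FPKM in Con, 0 to 0.195 FPKM after TNF-α and 0 to 0.0606 FPKM after TNF-α+WBT, with at most 8.1 fragments. Cxcl9, a Cxcr3 ligand known as a target of interferon gamma, did not exceed 2.0 fragments in a library and was at 0 in 3 of the 9 libraries. Cxcl5 was above 0 in 2 of the 9 libraries with 1.0 fragment each, and it was not tested. A count of 0 still allows 3 fragments, which is 0.0395 to 0.0612 FPKM for Cxcl9 and 0.0724 to 0.112 FPKM for Cxcl5, and counting error limits both genes at these levels. The lower ends of Cxcl9 and Cxcl10, both on the minus strand, are 25.3 kb apart.

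The second comparison asked whether adding WBT to TNF-α changed these genes. None of the 9 genes passed an adjusted p under 0.05 in limma, nor in limma-voom, and none passed the thresholds of the study. At an unadjusted p under 0.05 there was 1 in limma, Cxcl2, and there were 2 in limma-voom, Cxcl1 and Cxcl10, beside 6.31% and 6.23% of all genes tested in these models. Over all genes tested in limma, 0.00393% (1 gene) were called at the adjusted threshold and 1.12% by the thresholds of the study. The median log2 difference of the 8 tested genes was -0.24, beside -0.002 for all genes tested. It takes in Cxcl2, Cxcl9, Cxcl14 and Cxcl16, which had at most 13.2 estimated fragments in a library, so it is not read as a fall of the family.

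For Cxcl10 the 3 TNF-α+WBT libraries (4.02 to 4.76 FPKM) all lay below the 3 TNF-α libraries (5.99 to 7.52 FPKM), a mean ratio of 0.657. The log2 difference was -0.59 ± 0.31 (SE, 95% interval -1.3 to 0.11, adjusted p = 0.821), and it did not pass the adjusted test in this model or in any of the 20 alternatives (adjusted p = 0.443 to 1.0). The interval includes 0 in the model of all 9 libraries (unadjusted p = 0.0899), whose spread takes in the Con libraries with their few Cxcl10 fragments. The unadjusted p was 0.0016 with only the 2 groups compared in the model, 0.00393 without Con replicate 3, 0.0453 without Con replicate 1 and 0.00426 at a pseudocount of 1 FPKM. It was 0.00554 in limma-voom and 0.0785 to 0.205 in all the other alternatives, such as 0.168 at a pseudocount of 0.01 FPKM. Cxcl1 was lower in the same way, with a mean ratio of 0.854 and a log2 difference of -0.22 (95% interval -0.45 to 0.01, adjusted p = 0.797). Such a separation of 3 libraries from 3 has an exact two-sided permutation p of 0.1, the smallest this design can give. The unadjusted p of Cxcl1 was 0.0546 in the limma model. Over the alternatives it lay on both sides of 0.05, from 0.024 without TNF-α replicate 3 to 0.187 without TNF-α replicate 1. The adjusted p of Cxcl1 was at least 0.715 in all alternatives. For Cx3cl1 (-0.06, 95% interval -0.25 to 0.12) and Cxcl12 (0.02, -0.19 to 0.22) the groups overlapped. For Cxcl2 the TNF-α+WBT values (0 to 0.0488 FPKM) lay below those with TNF-α (0.0583 to 0.161 FPKM), but at most 2.0 fragments against at most 6.0 are too few to give the difference a size.

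The third comparison set TNF-α+WBT against Con and shares its libraries with the other comparisons. Again 3 of the 9 genes had an adjusted p under 0.05, and all were higher, with 3.71% of all genes called and 2.31% called as higher. By the thresholds of the study 2 of the 9 rose, beside 1.28% of all genes. Cxcl10 was 13.2 times and Cxcl1 6.49 times its Con mean, with log2 differences of 3.48 ± 0.31 (SE, adjusted p = 0.000415) and 2.62 ± 0.10 (SE, adjusted p = 4.25e-06). Cx3cl1 was 1.29 times its Con mean (log2 difference 0.36 ± 0.08, SE, adjusted p = 0.0459). That last call was lost on leaving out any library except TNF-α replicate 2 and TNF-α+WBT replicate 3, with adjusted p-values of 0.0586 to 0.154, and in 13 of 20 alternatives in all. For Cxcl12 the difference was 0.28 (95% interval 0.08 to 0.48, adjusted p = 0.162), and with limma-voom 0.35 with an adjusted p of 0.0134.

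**Figure D3:**
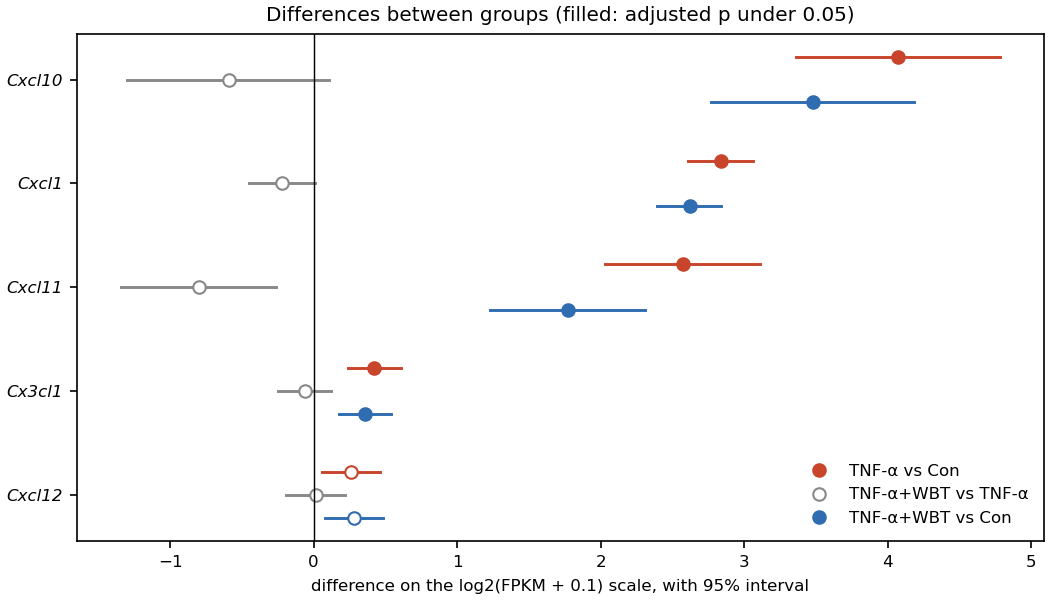
Difference between groups on the log2(FPKM + 0.1) scale (horizontal axis) with its 95% interval for the 4 expressed members and Cxcl11; colours give the comparison, and filled points have an adjusted p under 0.05. Cxcl10 and Cxcl1 stand far to the right of 0 in both comparisons with Con, at 4.07 and 2.84 for TNF-α, and no point of TNF-α+WBT against TNF-α is filled.

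Transcript values showed which forms of the expressed genes were present. The 9 genes have 29 annotated transcripts, of which 21 could be tested, and 3 rose with TNF-α at an adjusted p under 0.05, beside 0.392% of the 80149 transcripts tested. These were the coding Cxcl1-201, the retained-intron Cxcl1-202 and the coding Cxcl10-201. Cxcl1-201 went from 1.25, 1.41 and 1.17 FPKM in Con to 9.97, 8.81 and 8.06 FPKM with TNF-α (log2 difference 2.72 ± 0.12, SE, adjusted p = 6.97e-05). Cxcl1-202 went from 0.128, 0.107 and 0.05 FPKM to 1.37, 1.71 and 1.31 FPKM (3.02 ± 0.26, SE, adjusted p = 0.00221). Its share of the summed transcripts of Cxcl1 was 6.83% in Con, 14.1% after TNF-α and 15.9% after TNF-α+WBT, given without a test. Cxcl10-201 held 90.8% of Cxcl10 in Con and 98.0% with TNF-α. The Con libraries held 24.6 to 37.5 estimated fragments of all Cxcl1 transcripts together and 2.9 to 14.8 of Cxcl10. The Con shares are therefore known only roughly, and shared fragments were divided between transcripts by the estimate of the authors. Cx3cl1-201, which encodes the full protein, held at least 93.6% of Cx3cl1 in each group on average, and at the transcript level its rise with TNF-α did not pass the test (0.45 ± 0.08, SE, adjusted p = 0.0889).

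Cxcl12 is spliced at its 3′ end into forms that differ in the last codons. The coding ends are printed because they tell the 2 main coding forms apart; lower case marks the last 24 of 267 shared coding bases, and capitals the bases particular to each form, before the stop codon.
Cxcl12-203: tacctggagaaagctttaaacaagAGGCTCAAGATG
Cxcl12-201: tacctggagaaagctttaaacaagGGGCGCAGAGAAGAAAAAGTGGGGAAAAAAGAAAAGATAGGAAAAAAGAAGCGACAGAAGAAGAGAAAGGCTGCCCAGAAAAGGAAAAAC
The form with 12 bases of its own, Cxcl12-203 (93 codons), held 59.8% of the Cxcl12 transcripts in Con, 58.3% after TNF-α and 52.3% after TNF-α+WBT. The form with 90, Cxcl12-201 (119 codons), whose end is rich in lysine and arginine codons, held 22.3%, 23.3% and 29.2%. These are group means, given without a test. For Cxcl12-203 the libraries ranged over 52.0% to 66.8% in Con and 48.2% to 60.4% in TNF-α+WBT. For Cxcl12-201 they ranged over 14.7% to 30.3% in Con and 22.6% to 33.1% in TNF-α+WBT, so the shares overlapped. Cxcl12-201 was at 2.18, 1.89 and 1.28 FPKM in Con, at 2.01, 2.39 and 2.43 FPKM with TNF-α and at 3.0, 3.31 and 2.33 FPKM with TNF-α+WBT. The groups overlapped in part, and no Cxcl12 transcript passed an adjusted p under 0.05, the closest being Cxcl12-201 between TNF-α+WBT and Con (log2 difference 0.68 ± 0.23, SE, adjusted p = 0.493). The retained-intron Cxcl12-204 held 16.7% to 17.9% in the 3 groups. Fragments from the shared exons were divided between these forms by the estimate of the authors, so the shares carry that error too.

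**Figure D4:**
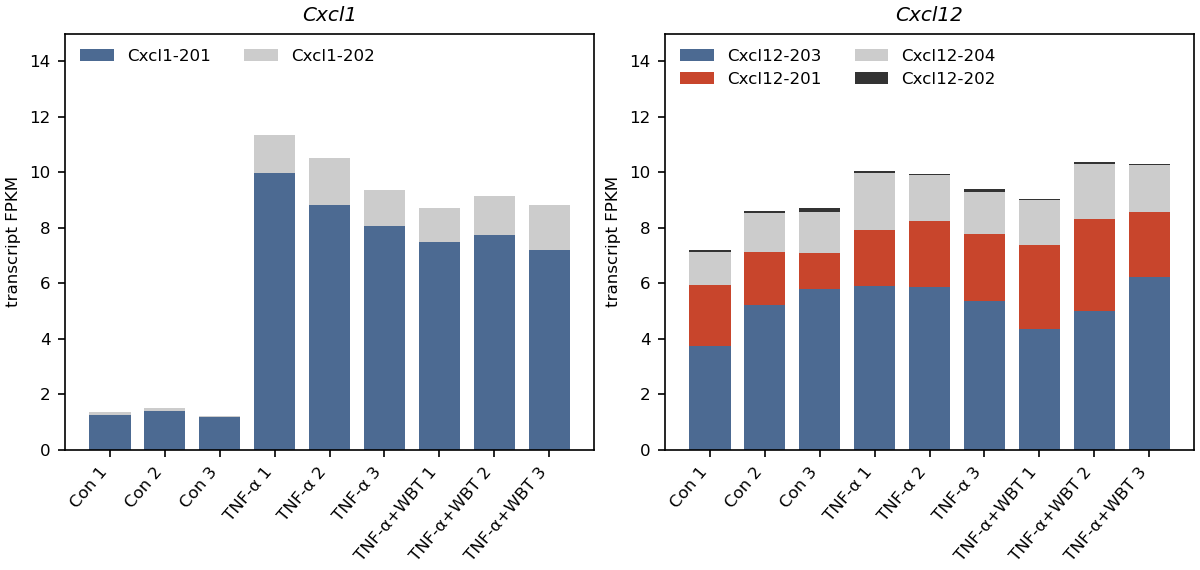
Transcript FPKM (vertical axis) of Cxcl1 (left) and Cxcl12 (right) in each library, stacked by transcript. Cxcl1-201 makes up most of Cxcl1 in all 9 libraries, and Cxcl12-203 is the largest segment of Cxcl12 in all 9.

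Position was compared with level because 5 of the 9 genes lie on chromosome 5 in clusters. Cxcl5, Cxcl1 and Cxcl2 lie in the first, which also holds Ppbp, Pf4, Cxcl3 and Cxcl15. Among these 7 chemokine genes, Cxcl1 exceeded 0.2 FPKM and no other did in any library, and Ppbp, Cxcl3 and Cxcl15 were at 0 in all 9 libraries. The lower ends of Cxcl1 and Cxcl2 are 12.6 kb apart. The next gene beyond Cxcl2, Mthfd2l, an enzyme of mitochondrial folate metabolism, was at 14.3 ± 0.922 FPKM in Con and 10.5 ± 3.47 FPKM with TNF-α (adjusted p = 0.298). In the second cluster Cxcl9, Cxcl10 and Cxcl11 lie in a row. Scarb2, which encodes a lysosomal membrane protein and lies 94.7 kb from Cxcl10, fell by 0.25 on the log2 scale with TNF-α (adjusted p = 0.00296), and the nearer Nup54 and Sdad1 did not pass the test (adjusted p = 0.877 and 0.152).

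**Figure D5:**
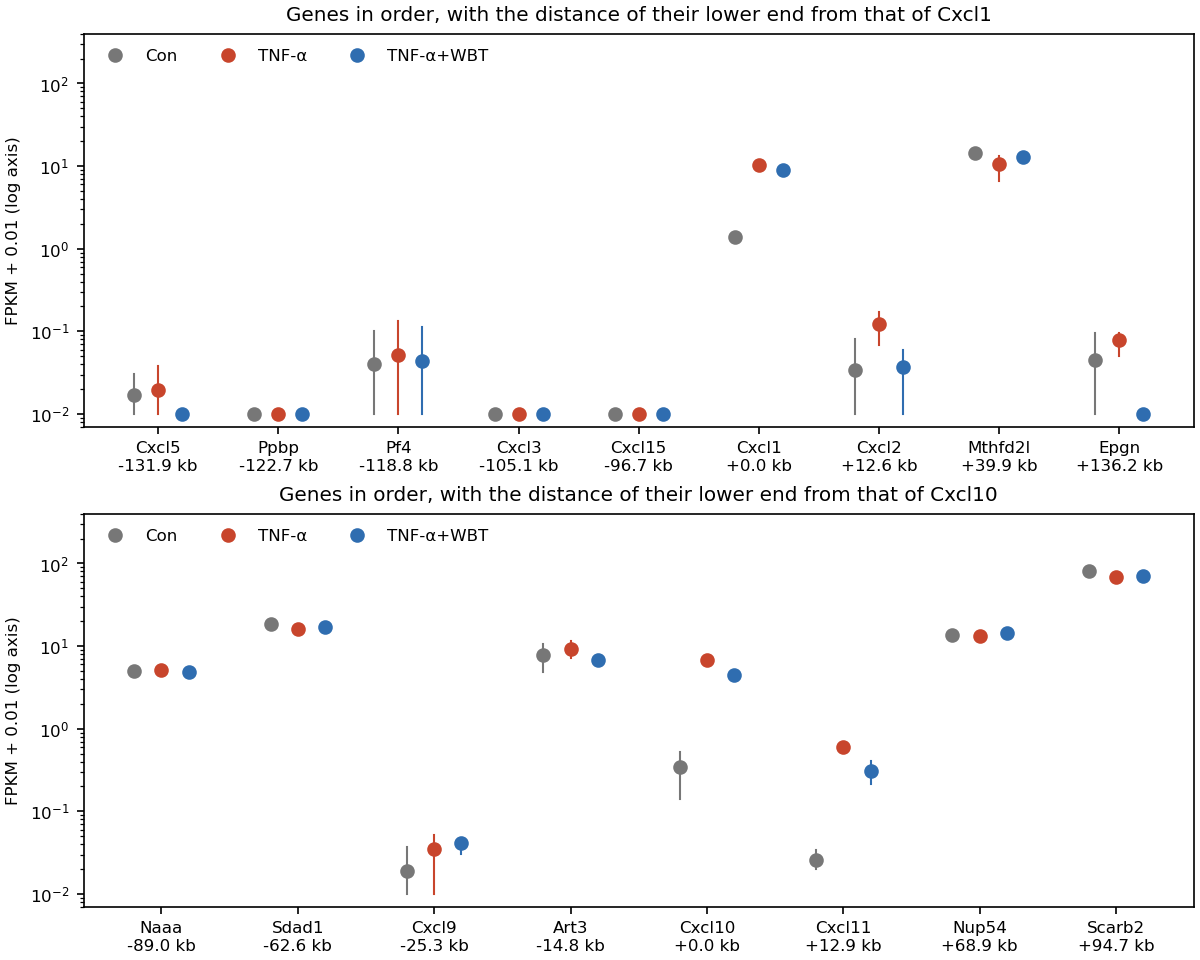
FPKM plus 0.01 (vertical log axis) of genes along the clusters around Cxcl1 (top) and Cxcl10 (bottom), in chromosomal order with the distance of each lower end from that of the named gene in kb; points are group means and lines the library range (n = 3). Among the chemokine genes, Cxcl1 in the first cluster and Cxcl10 and Cxcl11 in the second stand higher in the stimulated groups than in Con, while Cxcl5, Cxcl9 and the genes at 0 stay at the bottom.

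Of the 7 other CXC ligand genes, 3 could be tested. Among these, only Cxcl11, the third Cxcr3 ligand, had an adjusted p under 0.05 for TNF-α against Con. It was called as higher, beside 2.94% of all genes tested. It was at 0.0101, 0.0244 and 0.0123 FPKM in Con, at 0.629, 0.5 and 0.635 FPKM with TNF-α and at 0.4, 0.206 and 0.298 FPKM with TNF-α+WBT, and all 3 ranges were separate. The log2 difference between TNF-α and Con was 2.57 ± 0.24 (SE, adjusted p = 0.000408). It depended on the pseudocount (0.64 with 1 FPKM and 4.58 with 0.01 FPKM), because the Con libraries held 0.9 to 2.0 estimated fragments. Between TNF-α+WBT and TNF-α it was -0.80 ± 0.24 (SE, adjusted p = 0.645). The annotation calls Cxcl11 a polymorphic pseudogene, and its coding form Cxcl11-201 carried nearly all of the signal in the TNF-α group. In TNF-α+WBT this form held 76.9% on average and 45.3% in the lowest library, and in Con 0.0%, at few fragments. Of the rest, Cxcl13, Cxcl17 and Pf4 did not exceed 2.5 fragments in a library.

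The receptors of these ligands were low. Of 9 receptor genes 7 could be tested, and none passed an adjusted p or an unadjusted p under 0.05 in any of the 3 comparisons in limma, while limma-voom gave 0 adjusted calls and 1 unadjusted, for TNF-α against Con. Over all genes, 16.1% and 19% had an unadjusted p under 0.05 in that comparison in limma and limma-voom, and 14.7% did between TNF-α+WBT and Con in limma. Ackr3, a scavenging receptor of Cxcl12, was the only one above 1 FPKM in all 9 libraries, at 1.77 ± 0.348 FPKM in Con and 2.28 ± 0.253 FPKM with TNF-α (adjusted p = 0.329). Its signalling receptor Cxcr4 averaged 0.905 ± 0.246 FPKM in Con, 0.625 ± 0.234 FPKM after TNF-α and 0.901 ± 0.243 FPKM after TNF-α+WBT. Cxcr3, Cxcr5, Cxcr2 and Cx3cr1 did not exceed 4.0 estimated fragments in a library, and Cxcr1, Cxcr6 and Ackr1 averaged 0.118 to 0.493 FPKM over the groups. The median log2 difference of the tested receptors between TNF-α and Con was 0.28, beside 0.003 for all genes tested. The estimates were negative for Cxcr1, Cxcr3 and Cxcr4 and positive for Cxcr5, Cxcr6, Ackr1 and Ackr3. Several of these genes had few fragments, so the median is not read as a rise of the receptors.

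Genes that act on these ligands or their transcription were taken from lists chosen for their known roles. Earlier results of these data were known at that choice, so the counts are a description and not independent evidence. Over these lists together with the other ligands and receptors, 21 of 57 tested genes changed with TNF-α at an adjusted p under 0.05, beside 4.86% of all genes tested. Of the 69 list genes, 44 exceeded 1 FPKM in all 9 libraries, so the lists hold more expressed genes than the whole table. With only genes averaging 1 FPKM or more in the model, 22 list genes were called, beside 1369 of 12686 genes. Of the 9 genes for ligand processing, 3 rose, 3 fell and 2 could not be tested. The proteases Mmp9 (0.182 ± 0.043 to 4.14 ± 0.166 FPKM, log2 difference 3.92, adjusted p = 2.58e-06) and Adam17 (15.5 ± 0.163 to 21.6 ± 0.908 FPKM, 0.47, adjusted p = 0.000464), which sheds membrane-bound Cx3cl1, rose, as did the Adam17 partner Rhbdf2 (6.67 ± 0.789 to 13.4 ± 1.02 FPKM, 1.0, adjusted p = 0.000362). Timp3, an inhibitor of Adam17, fell by 0.35 on the log2 scale (51.6 ± 2.24 to 40.3 ± 0.584 FPKM, adjusted p = 0.00267). Adam10, the constitutive sheddase of Cx3cl1 and Cxcl16, fell by 0.19 (adjusted p = 0.0404) and Mmp2, a protease that cleaves Cxcl12, fell by 0.17 (adjusted p = 0.016). The median of the list was -0.01, since members went both ways.

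Of the 8 genes of NF-κB transcription, 7 rose with TNF-α, all but Rela. Over all genes tested, 2.94% were called as higher with TNF-α and 4.86% either way. The median log2 difference of the 8 genes was 0.86, beside 0.003 for all genes tested. The inhibitor Nfkbia went from 24.7 ± 1.64 to 80.3 ± 1.52 FPKM (log2 difference 1.70, adjusted p = 6.36e-07), Nfkb2 from 20.7 ± 1.44 to 48.6 ± 1.94 FPKM (1.23, adjusted p = 6.22e-06) and Relb from 5.21 ± 0.504 to 23.5 ± 3.37 FPKM (2.15, adjusted p = 1.65e-05). None of the 8 passed the adjusted test between TNF-α+WBT and TNF-α, where 4 had an unadjusted p under 0.05 in limma and 5 in limma-voom, beside 6.31% and 6.23% of all genes. In the interferon list 4 of 11 rose with TNF-α (Ifngr2, Irf1, Stat2 and Ifngr1), with Irf1 from 19.4 ± 0.222 to 31.4 ± 2.0 FPKM (0.69, adjusted p = 0.00608), and the genes of interferon beta and gamma, Ifnb1 and Ifng, were at 0 in all 9 libraries. Rela, Ifnb1 and Ifng are named after their values were seen. Among 9 genes of mRNA stability 1 rose, the ribonuclease gene Zc3h12a (5.98 ± 0.902 to 10.2 ± 0.385 FPKM, 0.77, adjusted p = 0.003). Among 16 genes of receptor signalling, 14 of them tested, Rgs16, which shortens G protein signals, rose (15.9 ± 1.71 to 69.7 ± 3.23 FPKM, 2.13, adjusted p = 1.89e-06) and the receptor kinase Grk2 fell by 0.19 (adjusted p = 0.0405). With only genes averaging 1 FPKM or more in the model, 1369 of 12686 genes were called. The few calls for mRNA stability and receptor signalling are not read as a result about those lists. The medians of the interferon, mRNA stability and receptor signalling lists were 0.48, 0.02 and -0.02.

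The genes with the most similar profile were found by Pearson's r of log2(FPKM + 0.1) over the 9 libraries, among 12685 other genes averaging 1 FPKM or more. The libraries fall into the untreated and the stimulated, so r mainly reflects that difference and is given as a description. Closest to Cxcl1 were H2-Q4 (0.999), Arhgef3 (0.998) and C3 (0.998), of which C3 went from 8.77 ± 0.709 FPKM in Con to 167 ± 6.84 after TNF-α and 142 ± 9.56 after TNF-α+WBT. Closest to Cxcl10 were Gpr176 (0.994), Slc11a1 (0.994) and C1s2 (0.993), and Slc11a1 averaged 0.0551, 2.29 and 1.56 FPKM in the 3 groups. Cxcl1 and Cxcl10 had an r of 0.985 with each other, behind 72 genes nearer to Cxcl1. For Cx3cl1 the closest were Nfe2l2 (0.991), Gm20559 (0.969) and Optn (0.967), and for Cxcl12 they were Man2b2 (0.964), Lgals9 (0.954) and Camk2b (0.952).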

How the data were processed

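The authors deposited FPKM values per gene and per transcript, which the workflow of the study traces to HISAT2, StringTie and Ballgown; versions and genome build are not given in the sources used here. Gene symbols and positions came from GENCODE M21 (GRCm38), which covered 98.0% of gene IDs. All columns were mapped to a library. Because FPKM carries no depth, library totals were inferred from the increment of 1 fragment in 10675 genes with 1 transcript over 1000 bases; 52.4% to 56.2% of low values lay within 0.1 of a whole fragment (20% by chance), so fragments are approximate. Up to 3 fragments is the limit that a count of 0 allows, for counting error only, and genes at or below it in both groups were given no fold.

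Genes with a value over 0 in 3 or more libraries entered the test, on log2(FPKM + 0.1), which understates changes of low genes, in 1 limma 3.58.1 model (R 4.3.3, intensity trend) over 9 libraries, with Benjamini-Hochberg adjustment over all genes. The model was tested on simulated data with large changes in well-covered genes only. That run does not cover small differences or low genes. Transcripts were tested likewise. Python 3.11.15, pandas 2.3.3, numpy 2.4.6 and matplotlib 3.10.9 were used for the tables and figures. Alternatives were other pseudocounts, filters, scalings and models, a block for the replicate number, and leaving out each library.

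The members and lists were chosen with earlier results of these data known. Named genes were all members, other CXC ligands and receptors, at most 6 called genes of each other list, neighbours within 1 Mb, the 3 most similar genes of each member above 1 FPKM, and transcripts holding at least 10% of such a member.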

Additional observations from a re-analysis of the deposited data

How the results depend on the processing

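All counts of members past a threshold stayed within 1.5 times the value reported under all 20 alternatives, at 2 to 4 for an adjusted p under 0.05 in both comparisons with Con and at 0 for WBT added to TNF-α. The count by the thresholds of the study was 2 to 3 for TNF-α against Con, reaching 3 (with Cxcl2) at a pseudocount of 0.01 FPKM and without Con replicate 3. The 21 called genes of the lists became 16 to 24. Cxcl1 and Cxcl10 kept their calls against Con under all 20, with log2 differences of 2.26 to 3.0 and 2.53 to 4.47 for TNF-α. The small differences between TNF-α+WBT and TNF-α changed sign when libraries were left out, from -0.11 to 0.01 for Cx3cl1 and from -0.02 to 0.08 for Cxcl12. With the replicate number as a block, the replicate block fit gave Cx3cl1 an adjusted p of 0.0192 for TNF-α against Con, called 16 of the list genes, and changed no call of a member. Libraries with the same number correlated by -0.067 to 0.095 in their deviations from the group means and 6 of 18 matched their own number best, so the numbers were not taken as pairs. Depth limits Cxcl2, Cxcl5, Cxcl9, Cxcl14, Cxcl16 and Con levels of Cxcl10, and the log2 differences of the 5 low genes are not listed for the alternatives.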
